A study of Drosophila melanogaster with 3 samples.

Results

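The nuclear pore and nuclear transport genes of the fly were examined for binding of HLH54F, a basic helix-loop-helix (bHLH) transcription factor that acts in the caudal visceral mesoderm, from which longitudinal gut muscles arise. They were taken as the 21 protein-coding genes whose symbol begins with Nup and a digit, plus 14 listed genes (Mtor, annotated as Mgtor, mbo, Gp210, Ndc1, Elys, Sec13, Ran, emb, Fs(2)Ket, Kap-alpha1, Kap-alpha3, Pen, Tnpo and Cse1). This gave 35 genes of the 13945 protein-coding genes annotated on the 6 chromosome arms with peaks. The rule used no peak value, but the members were chosen with earlier results of these data known.

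The nuclear pore complex is a ring-shaped channel through the nuclear envelope, built from nucleoporins. An outer ring (the Nup107–Nup160 complex) and an inner ring form its scaffold, nucleoporins with phenylalanine-glycine repeats fill the channel, and filaments on the cytoplasmic face and a basket on the nuclear side complete it. Importins and exportins carry cargo through the channel and are loaded or unloaded by the small GTPase Ran. Nuclear pores and transport through them are needed in essentially every cell type, although single members can have narrower roles. Many of the products are supplied to the early fly embryo.

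Chromatin came from whole embryos of both sexes, aged 0 to 24 h, of a line with a transgene that stably expresses HLH54F fused at its C terminus to green fluorescent protein. The labels do not give the promoter that drives the transgene. There were 3 biological replicates in 1 group, and no control genotype or treatment was analysed. Chromatin was sonicated to fragments of 200 to 800 bp and precipitated (ChIP-seq), with an antibody against the tag per the labels' descriptions, although their antibody field names HLH54F. Whole embryos do not separate tissues, so a peak cannot be assigned to the visceral mesoderm or to any other cell type.

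All positions are in the dm6 build. The authors' optimal list held 4246 peaks, derived from the replicates by a test of rank reproducibility, and the pooled list of all replicates held 23689 peaks, many of them background. Among the peaks of the 35 genes, those of pooled rank up to 4246 by signal were optimal and the others were not. An optimal peak therefore need not be strong, or even called, in every replicate. Replicates 1, 2 and 3 had lists of 30000, 30000 and 24914 peaks, and read depth is unknown. Signal is the authors' value for a peak, on a scale that the labels and files do not define; in the optimal list it ran from 92.7 to 3344, with a median of 154. A gene is called promoter-bound below when an optimal summit lay within 500 bp of any of its own annotated transcription start sites, and distances are negative upstream of the start.

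HLH54F peaks lay at the promoters of 12 of the 35 genes (34.3%), beside 22.6% of all protein-coding genes. The strongest were at Nup37, Nup98-96, Kap-alpha3 and Nup160, with signals of 875, 523, 462 and 379, and the weakest at Nup43 and Nup62, with 112 and 111. All of the 12 lay at head-to-head gene pairs, in which a neighbouring gene starts close by and is transcribed away from the nucleoporin or transport gene. A further 10 genes had no promoter peak but an optimal summit in the gene body or up to 2 kb upstream, so that 22 of 35 (62.9%) had either kind, beside 30.6% of all protein-coding genes. Counting a summit only for the protein-coding gene with the nearest start, within 2 kb, left 9 of 35, beside 19.4% of all genes, a rule chosen after seeing the data. In the pooled list, 28 of 35 (80.0%) had a summit at the promoter, beside 50.4% of all protein-coding genes. No optimal or pooled summit lay in, or up to 2 kb upstream of, Gp210, Nup188 and Nup54.

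**Figure D1:**
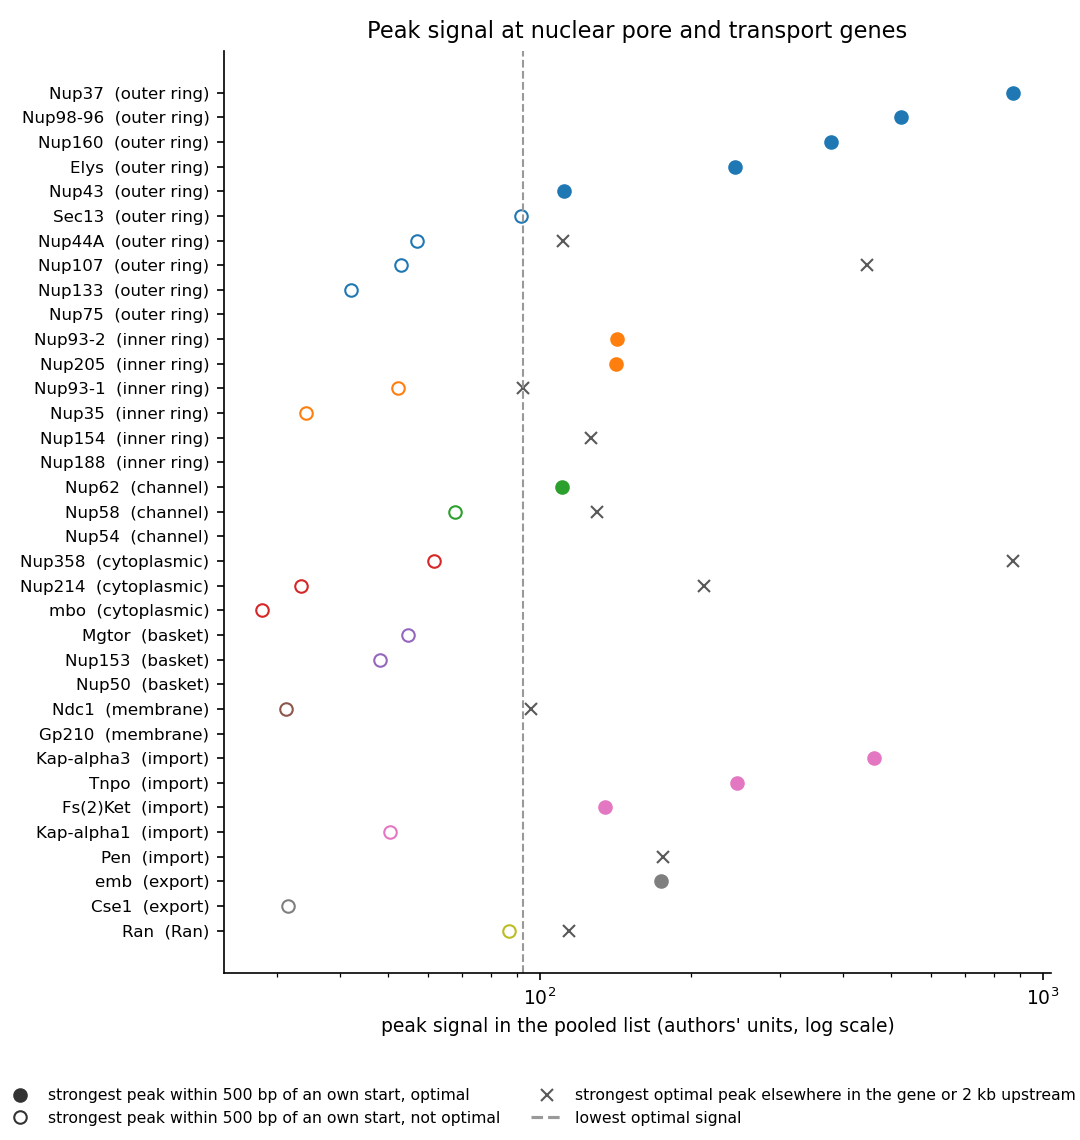
Signal (log scale) of the strongest pooled peak within 500 bp of a start site of each gene, filled where the peak is optimal; crosses give the strongest optimal peak elsewhere in the gene or 2 kb upstream, for genes without an optimal promoter peak. The dashed line is the lowest optimal signal, 92.7; 12 genes have a filled point, led by Nup37 at 875, and Sec13 lies just left of the line at 91.8.

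Counts by role, given below, stand beside 22.6% of all protein-coding genes. The groups hold only 1 to 10 genes and were not compared by a test. In the outer ring, 5 of 10 genes were promoter-bound. The strongest peak of all members lay on 3R at 25247386–25247703, between RpS27, which encodes a protein of the small ribosomal subunit, and Nup37, an outer-ring subunit. Its signal was 875, and its summit lay 123 bp upstream of Nup37 and 21 bp upstream of RpS27, in the stretch of 144 bp that separates their starts. It ranked 55, 87 and 73 in replicates 1, 2 and 3, a mean of 71.7 ± 16.0 (SD, n = 3), with replicate signals of 366, 251 and 272. All 3 replicates thus placed it among their 100 strongest peaks, and 97.7% of promoter-bound genes had a signal below it.

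Nup98-96 encodes a precursor that is cleaved into the channel protein Nup98 and the outer-ring protein Nup96. Its start lies 144 bp from that of mbc, a gene required in myoblast fusion. The main peak (3R, 23781450–23781703) had a signal of 523 and its summit 62 bp inside the Nup98-96 transcript, in the non-coding part of an exon. It was the only strongest promoter peak among the 12 with its summit downstream of the start. Its ranks were 253, 234 and 149 (212 ± 55.4, SD, n = 3). A weaker peak of signal 192 lay 139 bp upstream of Nup98-96 and 5 bp from the start of mbc, and it was uneven between replicates, with rank 11745 in replicate 1, rank 822 in replicate 2 and no peak in replicate 3. A peak of signal 154 lay in an intron of mbc, 1345 bp upstream of Nup98-96, and ranked 3145, 1001 and 3662.

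Nup160, a large scaffold subunit of the outer ring, had a peak on 2L at 11123620–11123822 with a signal of 379. Its summit lay 28 bp upstream of the start, and the neighbour Csl4, a subunit of the RNA exosome, starts 210 bp away. The ranks of 445, 324 and 693 (487 ± 188, SD, n = 3) lay in the top 4246 peaks of every replicate, the length of the optimal list.

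Elys encodes a chromatin-binding nucleoporin that seeds pore assembly after mitosis. Its peak (X, 19651964–19652383, signal 244) lay 131 bp upstream of its start, inside the transcript of Ranbp21, the fly exportin-5, whose start is 36 bp from that of Elys. A pore gene and an export receptor gene therefore shared this peak, and the summit was nearer to Ranbp21, at 95 bp. Its ranks were close, at 966, 1276 and 876 (1039 ± 209.8, SD, n = 3). The peak at Nup43, another outer-ring subunit, was weak (3R, 18366280–18366699, signal 112, 148 bp upstream, 476 bp from the start of WRNexo). Only replicate 3 placed it in its top peaks, with ranks of 5950, 5875 and 1737 (4521 ± 2411, SD, n = 3).

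In the inner ring, 2 of 6 genes were promoter-bound, both weakly. Nup205, a large scaffold protein, shares its promoter with pico, the starts being 155 bp apart, and the peak (X, 19851882–19852301) had a signal of 142 with its summit 122 bp upstream of Nup205 and 33 bp upstream of pico. It ranked 2432, 2859 and 3103 (2798 ± 339.6, SD, n = 3). A stronger peak of signal 214 lay 1511 bp upstream of Nup205 in an intron of pico, with ranks of 2039, 864 and 1856. Nup93-2, a copy of the linker nucleoporin Nup93, had a peak of signal 142 whose summit lay 6 bp upstream of its start (3R, 14898168–14898587), 367 bp from the start of CG3817. Its replicates disagreed: the rank was 965 in replicate 3, 3442 in replicate 1 and 22959 in replicate 2.

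Among the 3 channel genes, only Nup62, a nucleoporin with phenylalanine-glycine repeats, was promoter-bound (2R, 16344261–16344680). The summit lay 13 bp upstream of an own start and inside an exon of another Nup62 transcript, 195 bp separating the pair Nup62 and CG7997. Its signal of 111 was the lowest of the 12, and its ranks of 4418, 4876 and 2497 (3930.3 ± 1262, SD, n = 3) straddled the limit of 4246. None of the 3 cytoplasmic-face genes, the 3 basket genes, the 2 membrane genes or Ran was promoter-bound.

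Among the transport receptors, 3 of 5 import genes and 1 of 2 export genes were promoter-bound. Kap-alpha3, an importin alpha that links cargo to importin beta, had a pair of peaks between its start and that of Son, a splicing factor 309 bp away. The stronger (3R, 9577655–9577901, signal 462) lay 71 bp upstream of Kap-alpha3 and ranked 391, 209 and 244 (281 ± 96.6, SD, n = 3). The weaker (3R, 9577890–9578041, signal 172) lay 28 bp upstream of Son. In replicate 2 a single peak covered both summits, while replicates 1 and 3 ranked the weaker one 1842 and 880.

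Tnpo, the importin transportin of RNA-binding proteins, likewise had a pair of peaks, between its start and that of Sf3b6, a splicing factor 301 bp away. The stronger (3L, 6193048–6193467, signal 246) lay 222 bp upstream of Tnpo and 79 bp upstream of Sf3b6, and the weaker (signal 130) lay 23 bp upstream of Tnpo. Each replicate had 1 peak over both summits, ranked 1367, 1331 and 553 (1084 ± 459.9, SD, n = 3). Fs(2)Ket, the fly importin beta, had a peak of signal 135 nearer to its neighbour TM9SF2, at 22 bp, than to its own start, at 278 bp (2L, 20734121–20734540). It ranked 2318 and 1561 in replicates 1 and 3 but 9559 in replicate 2.

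The export receptor emb, the fly CRM1, had a peak of signal 174 whose summit lay 51 bp upstream (2L, 8403312–8403731), inside an exon of the long non-coding RNA gene lncRNA:CR44991. The start of fy, a planar cell polarity gene, is 293 bp away. The ranks were 1779, 1668 and 2157 (1868 ± 256, SD, n = 3), all in the top peaks.

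**Figure D2:**
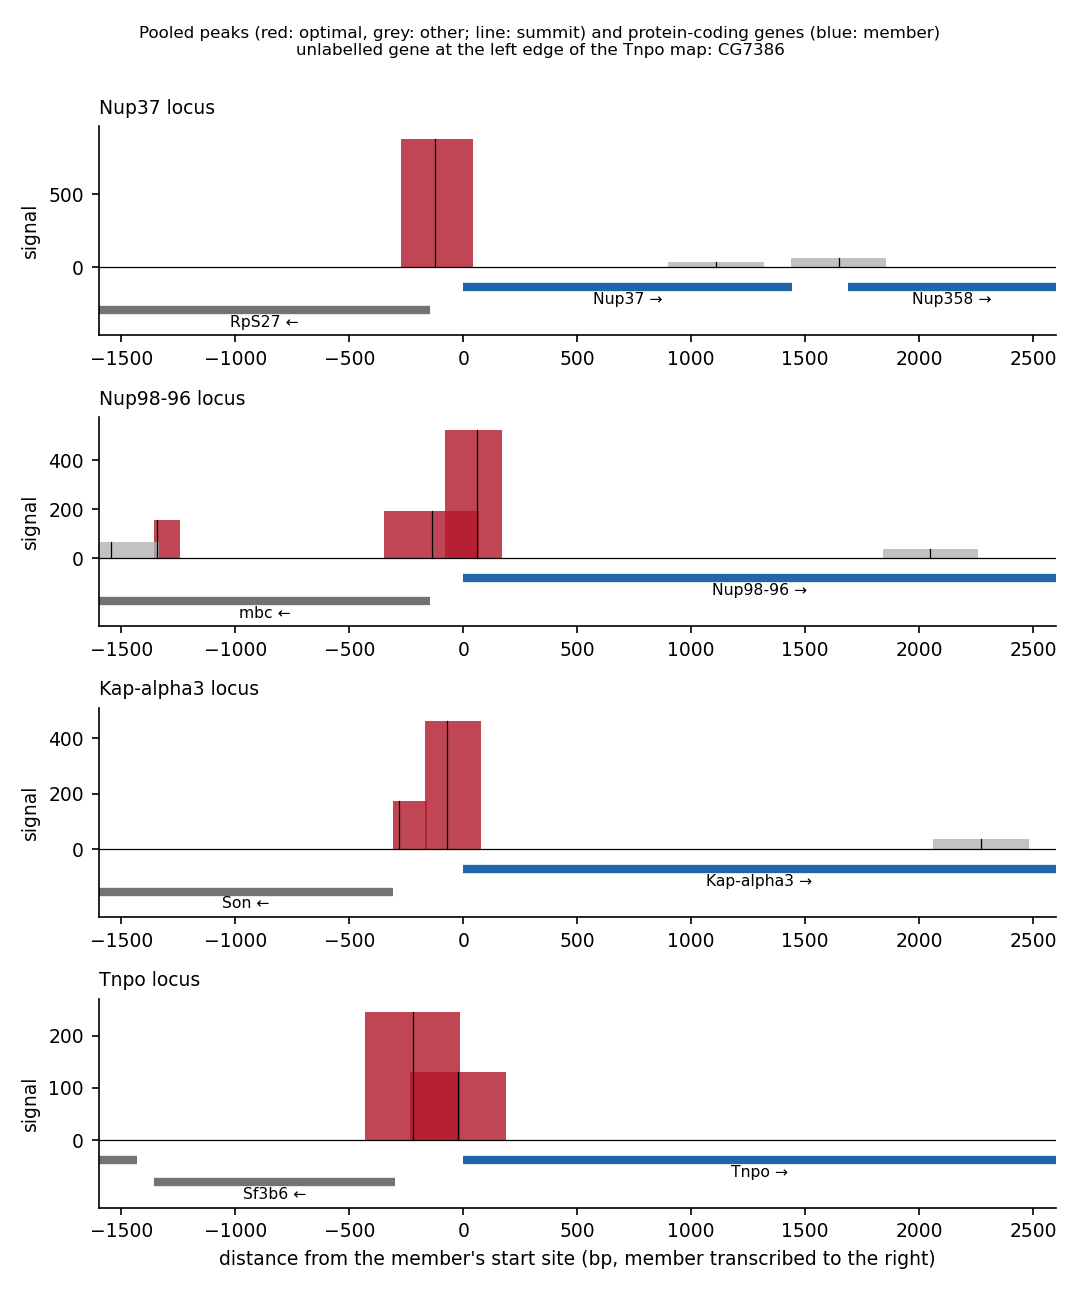
Pooled peaks at 4 loci as bars (height, signal in the authors' units; width, extent of the peak; red, optimal) with protein-coding genes below, against distance in bp from the start of the named gene, which is transcribed to the right. In each map the red peaks at the promoter lie across the stretch between the named gene (blue) and a neighbour transcribed to the left, and at Nup37 the next gene, Nup358, has only a grey peak of signal 61.5 at its start.

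The stretches between the starts at Nup37, Kap-alpha3, Nup160 and Tnpo are printed because they hold the 3 strongest promoter summits that lie between genes, and the double peak at Tnpo. Each is the stretch, up to 300 bases long, outside annotated exons and next to the named gene, read 5′ to 3′ on that gene's strand from the RefSeq release 6 genome in dm6 coordinates. Capitals mark matches to CANNTG, the E-box recognised by bHLH proteins, to TATCGATA, the DNA replication-related element, and to GGTCACAC, the core of the promoter element called Motif 1, here on the reverse strand as its complement. They lie at chr3R:25247515-25247657 (plus strand), chr3R:9577734-9578033 (minus), chr2L:11123568-11123776 (plus) and chr3L:6193180-6193479 (plus), in that order.
Nup37: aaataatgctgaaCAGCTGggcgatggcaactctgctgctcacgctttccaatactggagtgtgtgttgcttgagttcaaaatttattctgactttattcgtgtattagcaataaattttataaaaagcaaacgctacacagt
Kap-alpha3: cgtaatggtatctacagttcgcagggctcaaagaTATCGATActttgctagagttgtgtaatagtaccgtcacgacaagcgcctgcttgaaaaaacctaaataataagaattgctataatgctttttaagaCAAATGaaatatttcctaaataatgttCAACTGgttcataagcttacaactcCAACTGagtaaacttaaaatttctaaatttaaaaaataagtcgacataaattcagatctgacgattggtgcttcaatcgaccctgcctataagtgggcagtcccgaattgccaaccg
Nup160: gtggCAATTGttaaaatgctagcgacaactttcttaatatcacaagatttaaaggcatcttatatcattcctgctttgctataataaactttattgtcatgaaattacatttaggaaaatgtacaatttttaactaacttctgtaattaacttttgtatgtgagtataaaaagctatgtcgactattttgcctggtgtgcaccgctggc
Tnpo: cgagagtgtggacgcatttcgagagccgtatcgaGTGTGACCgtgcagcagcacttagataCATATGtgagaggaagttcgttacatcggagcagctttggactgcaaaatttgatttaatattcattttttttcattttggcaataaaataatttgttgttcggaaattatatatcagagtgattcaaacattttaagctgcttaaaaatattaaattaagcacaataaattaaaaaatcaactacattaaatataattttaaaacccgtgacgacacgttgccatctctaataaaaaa

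At Nup37 the E-box, of the form CAGCTG, lay with its centre 4.5 bp from the summit. The TATCGATA match at Kap-alpha3 lay 18.5 bp from the summit nearer to Son, and its 3 E-boxes lay 43.5, 68.5 and 95.5 bp from the stronger summit, toward Son. At Tnpo the E-box CATATG lay 14.5 bp and the GGTCACAC match 40.5 bp from the stronger summit. The E-box printed for Nup160 lay outside the window of 100 bp on each side of its summit, which held no match to any of the motifs searched.

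Over the 15 promoter peaks of the 12 genes, the windows of 201 bp around the summits held CAGCTG in 2 (13.3%), beside 14.5% of the 2487 optimal peaks at protein-coding promoters. Any CANNTG, which includes CAGCTG, was in 9 (60.0%), beside 62.3%. TATCGATA was in 1 (6.67%), beside 9.57%, and GAGAG, the GAGA factor motif, was in 5 (33.3%), beside 19.0%. GGTCACAC was in 4 (26.7%), beside 6.11%, and these were the peaks at Nup62 and Nup93-2 and both peaks at Tnpo. In the 972 optimal promoter peaks at head-to-head gene pairs, the shares were 18.3% (CAGCTG), 63.5% (CANNTG), 12.3% (TATCGATA), 14.7% (GAGAG) and 8.13% (GGTCACAC). The same motifs were in 11.6% (CAGCTG), 61.2% (CANNTG), 7.39% (TATCGATA), 22.2% (GAGAG) and 3.74% (GGTCACAC) of windows of equal length upstream of all protein-coding genes. Both strands were searched. In narrower windows of 101 bp, CAGCTG was in the same 2 peaks (13.3%), beside 6.8% of all optimal promoter peaks, and CANNTG in 7 of 15 (46.7%), beside 944 of 2487; in windows of 401 bp, CAGCTG was in 2 (13.3%), beside 26.6%, and CANNTG in 13 (86.7%), beside 86.2%. The E-box shares of the 15 peaks thus stood above or below those of promoter peaks at large depending on the window. Median base composition was 39.3% G+C in the 15 windows and 37.3% in all 2487.

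A head-to-head neighbour was common to all promoter peaks of the set. Both starts of such a pair lay within 500 bp of the summit in 15 of 15 promoter peaks, beside 972 of the 2487 optimal promoter peaks (39.1%). These 15 were reached through genes, and a peak at a pair can be reached through either gene, so the share by peak is not a like background. Counted by gene, 12 of 12 promoter-bound members had a head-to-head neighbour within 1000 bp, beside 2082 of all 3157 promoter-bound genes. The summits at Elys and Nup62 and the stronger summit at Nup98-96 lay inside a transcript of the pair, and the summit at emb in an exon of the non-coding RNA. The genes themselves often have this arrangement: 27 of 35 (77.1%) have a head-to-head neighbour whose start is at most 1000 bp away, beside 36.2% of all protein-coding genes. Among genes with such a neighbour, 12 of 27 (44.4%) were promoter-bound, beside 41.2% of all such genes. Among genes without it, 0 of 8 were promoter-bound, beside 12.1% of all such genes. The share of promoter-bound genes was therefore near the background once genes of the same arrangement were compared.

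The median distance between the starts was 251.5 bp for the 12 promoter-bound genes and 227 bp for the 15 others with a head-to-head neighbour. With a neighbour at up to 500 bp, 12 of 22 (54.5%) were promoter-bound, beside 46.4% of all such genes, and with one beyond 500 and up to 1000 bp 0 of 5 were, beside 25.1%. Genes with close neighbours but no optimal promoter peak included Nup153 (26 bp), Kap-alpha1 (33 bp), Nup50 (35 bp), Nup188 (70 bp) and Nup75 (87 bp). A short gap thus did not always come with an optimal peak. The strongest promoter summit was nearest to the member's own start at 7 genes (Nup98-96, Kap-alpha3, Nup160, emb, Nup93-2, Nup43 and Nup62) and nearest to the neighbour's at 5 (Nup37, Tnpo, Elys, Nup205 and Fs(2)Ket). Which gene of a pair a peak belongs to cannot be told from its position.

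**Figure D3:**
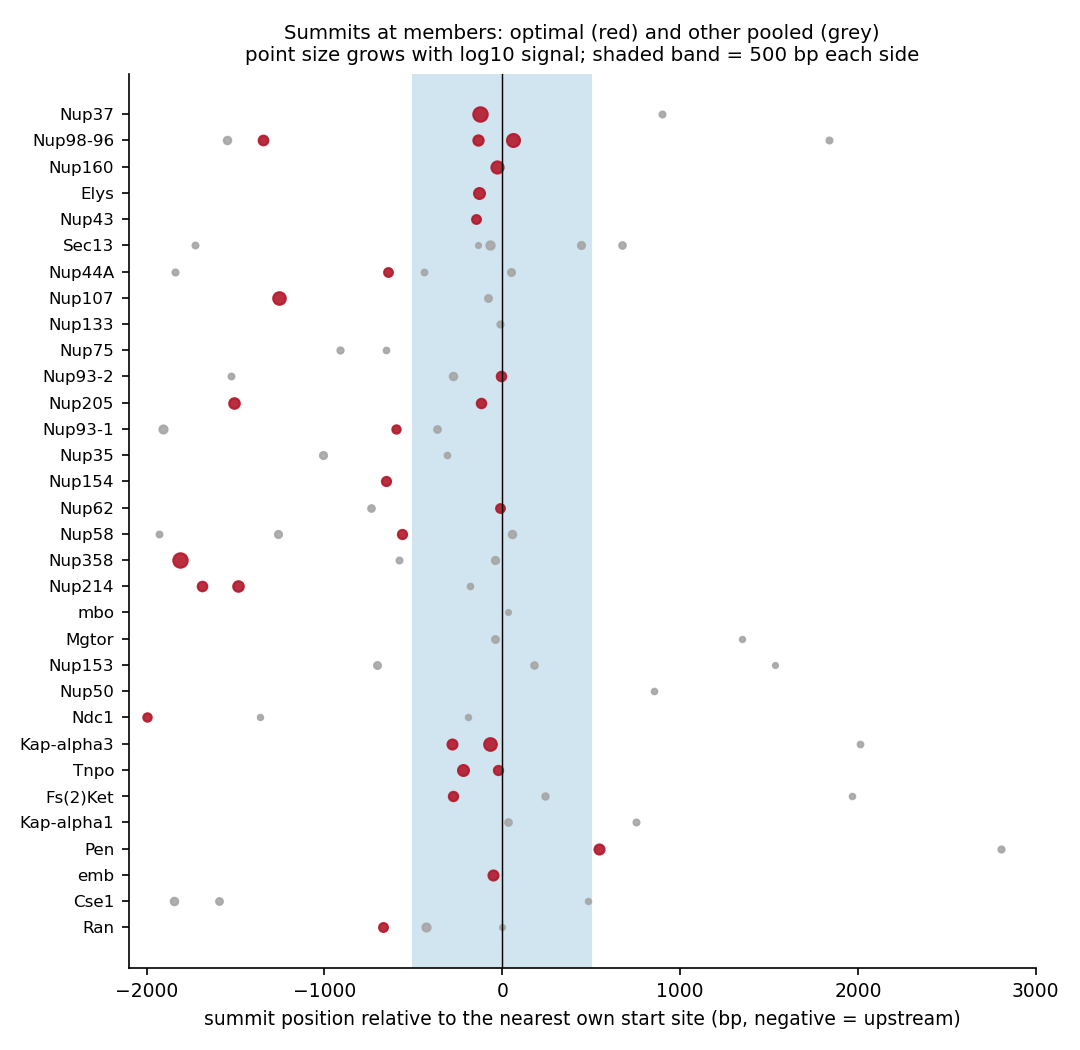
Summits in each gene or up to 2 kb upstream against distance in bp from the nearest own start site (negative, upstream), optimal in red and other pooled in grey, with larger points for higher signal. Red points inside the shaded band of 500 bp belong to 12 genes and lie mostly upstream; no red point lies between -562 and -281 bp or between 62 and 542 bp.

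Across the 12 genes the median signal of the strongest promoter peak was 209 (range 111 to 875), beside a median of 177 over the 3157 promoter-bound genes. The median summit position relative to the start was -96.5 bp, beside -111 bp over all promoter-bound genes, and 11 of 12 summits (91.7%) lay upstream, beside 88.8%. In the 4246 strongest peaks of replicates 1, 2 and 3, the median position of the strongest promoter peak per gene was -100.5, -54.5 and -49.5 bp. The mean was -68.2 ± 28.1 bp (SD, n = 3). These medians cover the 10, 8 and 14 genes with such a peak in that replicate, so the SD also reflects different sets of genes. At the strongest promoter peaks of the 12 genes, the replicate summits lay at a median of 18 bp from the pooled summit, and at most 96 bp away, at Nup205.

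The order of the genes by signal was only in part resolved. Of the 11 steps between neighbours in that order, 9 joined genes whose ranges of replicate ranks overlapped. Nup37 ranked stronger than Nup98-96, and Elys stronger than emb, without overlap. Compared within each replicate, 3 steps had the same order in all 3 replicates: these 2 and the step from Kap-alpha3 to Nup160. The other 8 steps, among them all those from emb down to Nup62, had the order of the pooled signal in 1 or 2 replicates.

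**Figure D4:**
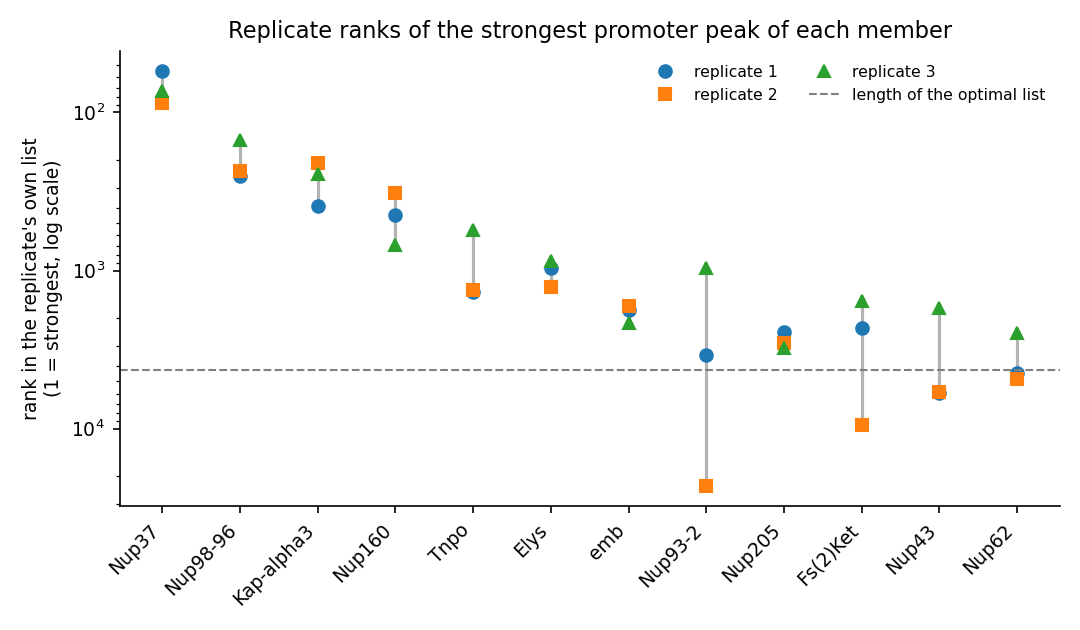
Rank (1 is strongest, log scale, inverted) of the strongest promoter peak of each promoter-bound gene in each replicate's own list, with a grey line from the lowest to the highest rank. Ranks are close for Nup37 (55 to 87) and spread widely for Nup93-2 (965 to 22959); points below the dashed line fall outside the 4246 top peaks of that replicate.

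To compare replicates, only the 4246 strongest peaks of each list were kept, called top peaks. For 8 of 35 genes (22.9%) a promoter summit of the optimal list lay in the top peaks of all 3 replicates, beside 16.5% of all protein-coding genes. These were Elys, Kap-alpha3, Nup160, Nup205, Nup37, Nup98-96, Tnpo and emb. Fs(2)Ket and Nup93-2 were found in the top peaks of replicates 1 and 3, and Nup43 and Nup62 in those of replicate 3 only. The optimal list was derived from these replicates, so this overlap is a description and not independent support.

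By each replicate's own top summits, 10 genes (28.6%) were promoter-bound in replicate 1, beside 22.3% of all genes, 8 (22.9%) in replicate 2, beside 21.8%, and 14 (40.0%) in replicate 3, beside 22.1%. The share was 30.5% ± 8.71 for the 35 genes and 22.1% ± 0.252 for all genes (SD, n = 3 each). The excess over all genes thus varied between replicates from about nothing in replicate 2 to its highest value in replicate 3. Replicate 3 held the 12 genes of the optimal list plus Nup58 and Sec13.

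**Figure D5:**
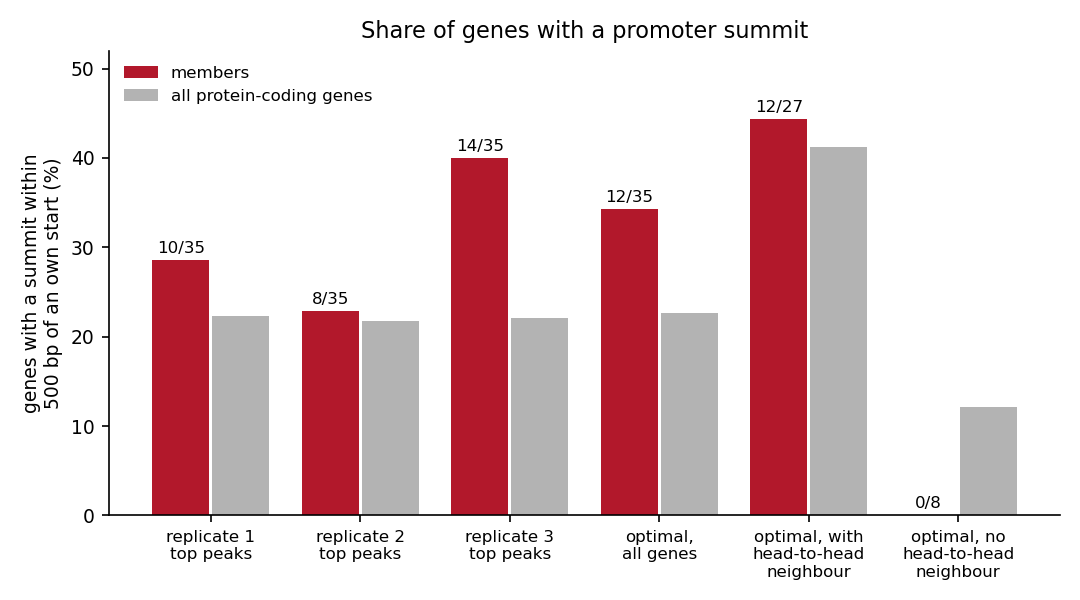
Share of genes (%) with a summit within 500 bp of an own start, for the 35 genes (red, with counts) and all protein-coding genes (grey), by replicate and, in the optimal list, by arrangement. The red bars range from 22.9% to 40.0% over replicates while the grey bars stay at 21.8% to 22.3%, and in genes with a head-to-head neighbour the bars are 44.4% and 41.2%.

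At the 10 genes with an optimal summit only outside the promoter window, that summit was mostly nearer to another gene's start. At 9 of them the start nearest to the strongest such summit was another gene's, and at 7 that summit lay within 500 bp of an annotated start. Over all 35 genes, 19 (54.3%) had an optimal summit in the gene or 2 kb upstream that also lay within 500 bp of any start, beside 26.9% of all protein-coding genes. Nup358, the large nucleoporin of the cytoplasmic filaments, counted through the RpS27 and Nup37 peak, 1813 bp upstream, while the pooled peak at its own start had a signal of 61.5. Nup107, the outer-ring scaffold subunit, counted through a peak of signal 448 that lay 16 bp from the start of CG12299 and 1258 bp from its own, with ranks of 373, 433 and 208. Nup214, also of the cytoplasmic face, counted through peaks of signal 213 and 147 in an intron of ReepA.

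Pen, an importin alpha needed in the female germ line, was the exception. Its peak (2L, 10057232–10057651, signal 176) lay in its own intron, 542 bp downstream of its start, and ranked 3458, 1383 and 1468. It thus fell just outside the promoter window while lying in the top peaks of all 3 replicates. The other 6 had weaker peaks, which lay near Vha13 for Nup58 (signal 130), RpL9 for Nup154 (127), Lint-1 for Ran (114), in an intron of ACC for Nup44A (111), in an intron of sba for Ndc1 (96.0) and at Clic for Nup93-1 (92.7). The peak at Clic was the last of the optimal list.

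Apart from Gp210, Nup188 and Nup54, which had no pooled summit, the remaining genes had only peaks below the optimal list. Sec13, shared between the outer ring and vesicle coats, lay just outside it: its peak of signal 91.8, 69 bp upstream and between ATPsynCF6 and Sec13, was the 4307th of the pooled list and ranked 5355, 6387 and 2730. The other pooled promoter peaks were weaker, with signals of 54.8 at Mgtor and 48.1 at Nup153, both of the basket, 50.4 at Kap-alpha1, 42.1 at Nup133, 34.3 at Nup35, 31.5 at Cse1, the export receptor of importin alpha, and 28.0 at mbo, the fly Nup88. The lowest signal in the pooled list was 27.9, so mbo stood at its floor. Nup75 and Nup50 had only summits in the gene or upstream, of signal 42.4 and 33.9. These weak peaks are in a list that holds background and were not read as binding.

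By chromosome arm, promoter-bound genes were 5 of 11 on 3R, beside 24.3% of all protein-coding genes there, 3 of 7 on 2L, beside 21.6%, and 2 of 6 on X, beside 21.5%. They were 1 of 2 on 3L, beside 23.2%, and 1 of 9 on 2R, beside 22.1%. The numbers per arm are small, and the arms were not compared by a test. Among 25 further transport and export genes, 8 were promoter-bound, with a median signal of 266, beside 177 over all promoter-bound genes. These 8 include Ranbp21, through the peak it shares with Elys. The strongest were RanGAP, the GTPase-activating protein of Ran, with 688 (125 bp upstream, ranks 103, 121 and 110), msk, the fly importin 7, with 410 (78 bp upstream, ranks 279, 536 and 295), and Tnpo-SR, an importin of splicing factors, with 324 (110 bp upstream, ranks 558, 579 and 762). Each of these summits was nearest to the gene's own start. Around the Ran cycle, promoter peaks were optimal at RanGAP and at Rcc1, the exchange factor of Ran (signal 108, ranks 2653, 4912 and 4233). The pooled promoter peak at Ran had a signal of 87.0, ranked 4922, 4415 and 5758, and fell below the optimal list. Rcc1 and Ran thus lay close to the threshold, on either side of it. An optimal peak of signal 114 lay 672 bp upstream of Ran, near the start of Lint-1.

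Of 13 genes of the nuclear lamina and envelope, 6 were promoter-bound, with a median signal of 226, beside 177 over all promoter-bound genes. The strongest was Msp300, a nesprin of the nuclear envelope of muscle, with 819 (344 bp upstream, ranks 83, 112 and 68), followed by klar, a nuclear-migration protein, with 238 and kuk, a lamina protein of the cellularising embryo, with 228. The summits of klar and kuk were nearer to the starts of BORCS6 and Keap1. Both lists are short and were set beside the 22.6% of all genes without a test. Neither was split by head-to-head arrangement.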

How the data were processed

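HLH54F ChIP-seq peak lists of 3 embryo replicates were used in the dm6 build, as deposited. Per the records deposited beside the lists, each replicate was called against a control, and the pooled list on all replicates. For the aligner, peak caller and settings, nothing is given in the sources used here. The signal of each peak is the authors' value in the deposited lists and was used only to describe and rank peaks within a list. The dm3 lists were not used. Summits (start plus deposited offset) were placed by Python 3.11.15, numpy 2.4.6 and pandas 2.3.3 against Ensembl release 115, with every transcript 5′ end as a start. The assignment was tested on simulated peaks. A replicate held a summit when a peak of it covered the summit. Motifs were searched within 100 bp of summits. Every member is named. With 1 group no test between conditions exists, and members and lists were chosen with earlier results of these data known. Alternatives changed the window, start sites, threshold and replicates.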

Additional observations from a re-analysis of the deposited data

How the results depend on the processing

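The count of 12 promoter-bound genes was 11 with a window of 250 bp (18.6% of all genes), 12 with the most upstream start only (20.6%), 8 when a summit counted only for the nearest protein-coding start (16.7%; Elys, Fs(2)Ket, Nup205 and Nup37 were lost), and 18 both at 1000 bp (25.6%) and when any base of the peak counted (24.1%). It fell to 7 with the stronger part of the optimal list, its upper 50% by signal, beside 13.3% of all genes, and rose to 22 in the gene or 2 kb upstream. The count of 22 became 12 with the stronger peaks, beside 18.6% of all genes, and 9 with the nearest start only, beside 19.4% of all genes; both of these were chosen after seeing the data. The count of 8 found in all replicates was 8, 10 and 8 without replicates 1, 2 and 3, beside 17.2%, 18.4% and 18.1% of all genes. It was 12 with whole lists (22.1% of all genes) and 6 with 50% as many top peaks (9.78%). Leaving out a replicate or using whole lists can only keep or raise this count. The median signal of 209 became 142 at 1000 bp and 158 with the nearest start only, and the median position of -96.5 bp became -25.0 bp from the nearest start of any gene. All 15 promoter peaks also counted as lying at a head-to-head pair when both starts had to be within 1000 bp of the summit. A pair within 500 bp is also within 1000 bp, so this setting could not lower the count and does not test it. In windows of 101 bp, GGTCACAC was in 3 of 15, beside 79 of 2487 optimal promoter peaks (3.18%) and 4.42% of those at head-to-head pairs. In windows of 401 bp it was in 7 of 15 (46.7%), beside 249 of 2487 and 14.3%. GAGAG was in 4 of 15 (26.7%) at 101 bp, beside 9.57% of optimal promoter peaks, and in 6 of 15 at 401 bp, beside 37.5%. Both motifs thus became more frequent in longer windows among promoter peaks at large as well. The cause of these moves was not tested, beyond the sets of genes each rule admits. No paired analysis was possible because there was 1 group. Read depth is unknown, so a gene without a peak is one at which none was called, not one shown to be unbound.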
